A study of Homo sapiens with 16 samples.

Results

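The 48 genes described here encode enzymes that modify transfer RNA, and their mRNAs were followed in HEK293 cells, a line of human embryonic kidney origin, after silencing of Gemin5. They were taken by gene symbol from a list set by modification chemistry, and all 48 were found among the 58302 gene identifiers of the count files. By the compartment of the tRNAs they serve, 34 act in cytosol and nucleus, 7 in mitochondria and 7 in both. Gemin5 is an RNA-binding protein known for bringing small nuclear RNAs to the survival of motor neurons complex and for acting on translation. The study asked which mRNAs shift in abundance or in polysomes when Gemin5 is reduced. Cytoplasmic lysate RNA (Input) and RNA of the pooled heavy sucrose gradient fractions (Polysome) were sequenced from Ctrl cells and from cells given 100 nM of an siRNA against Gemin5 (siRNAG5), with 4 libraries in each of the 4 groups Input Ctrl, Input siRNAG5, Polysome Ctrl and Polysome siRNAG5. All cells were of the same line, and those on the gradients were held in cycloheximide, which stops elongation. The sample labels call the Ctrl cells untreated. The paper's methods list a control siRNA, and its legend on the silencing of the replicas equates Ctrl with siRNA control. The sources thus differ on whether the Ctrl cells also carried an siRNA. The silencing was partial, and the libraries hold mRNA of whole cultures, in which fewer cells carrying an mRNA and less of it per cell cannot be told apart.

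Transfer RNAs carry more kinds of chemical modification than any other RNA class. Modifications of the anticodon loop, above all at its first (wobble) position and at the base following the anticodon, tune codon reading and keep the reading frame, whereas those of the tRNA body hold the fold and protect the molecule from decay. Many of the enzymes work as pairs of a catalytic and a supporting subunit, and several are needed for mitochondrial translation or are mutated in neurodevelopmental disease.

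The libraries held between 11145324 and 24511299 reads on genes. GEMIN5 itself stood at 15.9, 18.9, 16.01 and 20.7 CPM (read counts scaled to library size) in Input Ctrl and at 7.46, 6.51, 6.22 and 6.68 CPM in Input siRNAG5, a log2 fold change (log2 FC) of -1.40 ± 0.12 (SE, n = 4 per group, edgeR quasi-likelihood test, adjusted p = 3.1e-10). In the Polysome libraries it fell by 1.44 on the log2 scale (adjusted p = 0.0048). Reads with more than 1 location took 4.88 to 6.04% in Input and 21.2 to 42.4% in Polysome libraries. After the treatment means were removed, the Polysome libraries Ctrl 1, siRNAG5 1 and siRNAG5 4 stood apart from the other 5 on a component with 61.9% of the remaining variance, with Ctrl 2 in between. All 5 genes listed as marks of HEK293 cells were read in every group, PAX2 only weakly. The 10 liver genes, which have no place in a kidney-derived culture, summed to 67.5 to 140 CPM in Polysome Ctrl and to 0.973 to 127 CPM in Input Ctrl, where Ctrl 3 and Ctrl 4 were high, against at most 1.10 CPM in any siRNAG5 library. The part of those reads in the results below was not tested beyond leaving out both Input libraries.

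In Input, Ctrl levels per kb of transcript spread widely over the 48 mRNAs. TRMT112, the small activating partner of several methyltransferases, was the most abundant, at 895 CPM per kb. The Elongator subunits ELP5 and ELP6 followed at 210 and 96.7 CPM per kb, and DUS1L, a dihydrouridine synthase, at 88.2 CPM per kb. At the other end stood DTWD2, ADAT1 and PUS10, at 0.356, 0.597 and 0.736 CPM per kb.

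After Gemin5 silencing the tRNA modification mRNAs in Input moved mostly downward. The paper already lists tRNA modification among the networks of transcripts down-represented in these same Input libraries. The Input counts below thus describe a theme found before in these data and are no independent test of it. A gene was called when its adjusted p was under 0.05 and its log2 FC beyond 0.5 in either direction. On that rule 11 of the 48 were called lower (22.9%) and 1 higher (2.08%), where 6.02% of the 14134 genes tested were called lower and 10.5% higher. On the adjusted p alone, 26 were lower and 5 higher, against backgrounds of 19.1% and 17.9%. The 4 siRNAG5 libraries lay wholly below the 4 Ctrl libraries for 23 mRNAs and wholly above them for 4, where 19.1% and 15.1% of all genes did so. The median log2 FC of the 48 was -0.30, beside 0.04 over all genes tested, and 38 of the 48 values were negative. The members called lower were spread over 9 of the 12 kinds of modification, and over 7 of 34 cytosolic and nuclear, 2 of 7 mitochondrial and 2 of 7 dual-compartment enzymes.

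**Figure D1:**
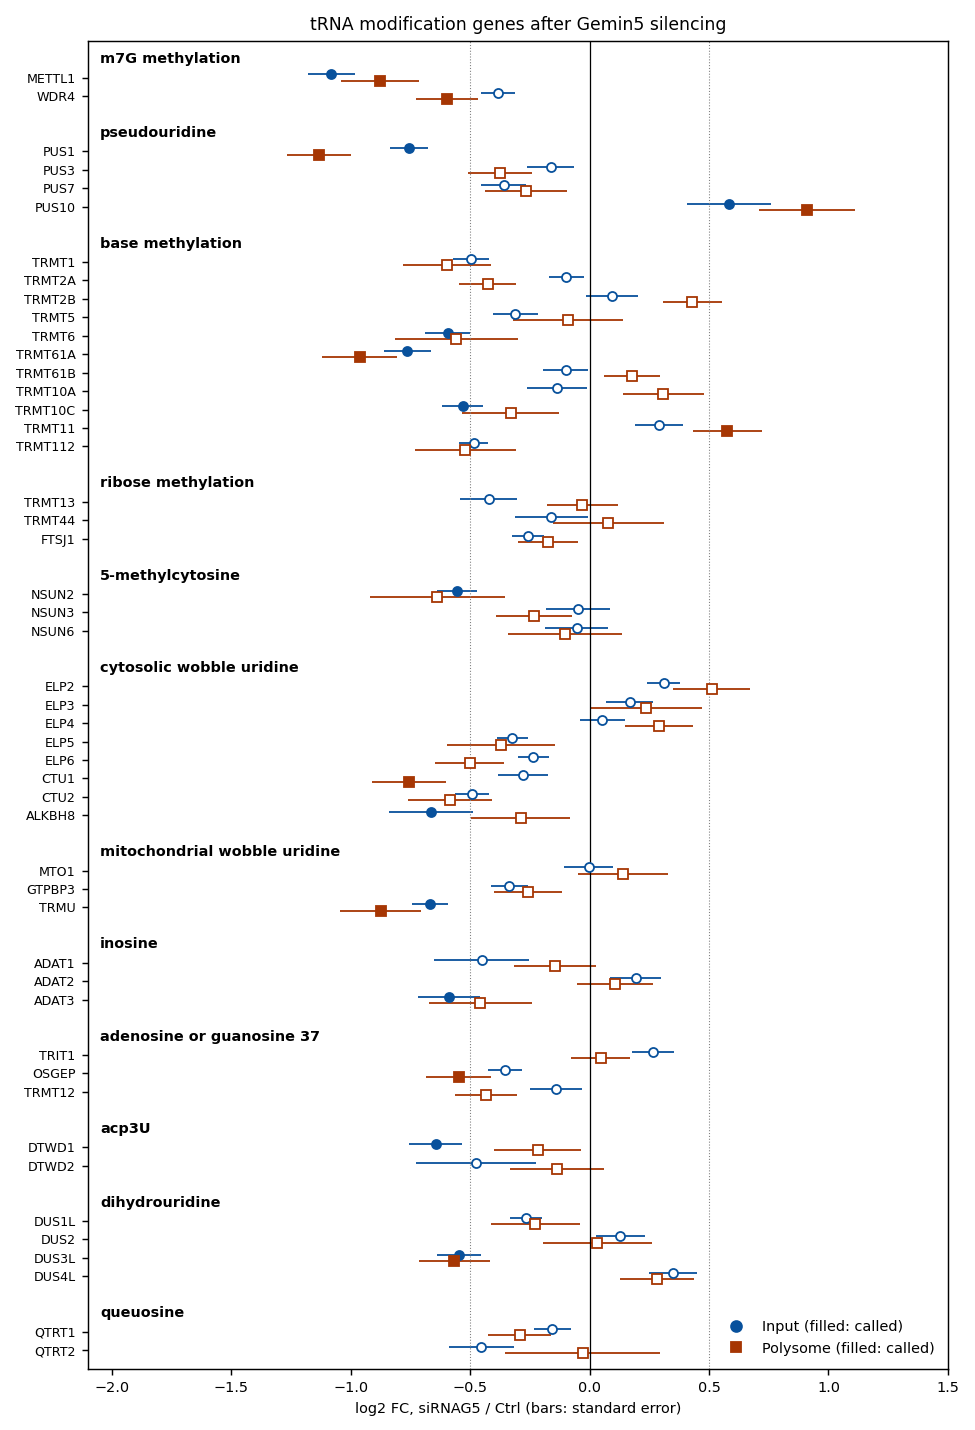
Log2 FC of siRNAG5 over Ctrl (x axis) for the 48 tRNA modification genes, grouped by kind of modification, in Input (circles) and Polysome (squares); bars are standard errors, filled symbols passed the call, and dotted lines mark the limit of 0.5. METTL1 reached the lowest Input value, -1.08, and PUS1 the lowest Polysome value, -1.14, while PUS10 was called higher in both fractions.

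The 7-methylguanosine pair gave the lowest Input value of all. METTL1 (chr12:57768471-57772119, minus strand, GRCh38), the catalytic subunit that methylates a guanosine of the variable loop, stood at 26.9, 31.1, 25.6 and 25.4 CPM in Input Ctrl and at 12.1, 13.9, 12.9 and 12.3 CPM in Input siRNAG5. Every silenced library lay far below every control, and the log2 FC was -1.08 ± 0.10 (SE, edgeR adjusted p = 1.3e-09). In polysomes METTL1 was at 20.2, 24.9, 17.2 and 18.3 CPM in Ctrl and 10.9, 9.28, 10.4 and 12.2 CPM in siRNAG5, again without overlap, a log2 FC of -0.88 ± 0.16 (adjusted p = 0.013). WDR4, its non-catalytic partner, read 70.5, 75.1, 67.0 and 66.4 CPM in Input Ctrl and 54.0, 51.6, 54.9 and 51.5 CPM in Input siRNAG5. These groups did not overlap either, but the log2 FC of -0.38 ± 0.07 (adjusted p = 8.8e-05) was inside the size limit. In Polysome WDR4 fell by 0.60 on the log2 scale (adjusted p = 0.021). The exons of METTL1 share 5.5% of their length with CYP27B1 on the same strand.

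Among the pseudouridine synthases, which convert uridine to its isomer pseudouridine, PUS1 and PUS10 moved in opposite directions. PUS1 (chr12:131929200-131945896, plus strand), which serves cytosolic and mitochondrial tRNAs, was at 84.5, 98.4, 85.1 and 95.9 CPM in Input Ctrl and 55.6, 45.8, 54.8 and 57.0 CPM in Input siRNAG5. All silenced libraries were lower than all controls, with a log2 FC of -0.76 ± 0.08 (edgeR adjusted p = 1.2e-08). In polysomes PUS1 was at 101, 114, 101 and 102 CPM in Ctrl and 39.5, 47.3, 44.7 and 53.3 CPM in siRNAG5 (log2 FC -1.14 ± 0.13, adjusted p = 0.0011), the lowest Polysome value of the 48. The change of PUS1 was not called different between the fractions (-0.41 ± 0.15, edgeR interaction test, adjusted p = 0.53). PUS10 (chr2:60940222-61018259, minus strand), which acts in the T loop, was scarce, at 2.39, 3.59, 3.02 and 2.84 CPM in Input Ctrl and 4.73, 4.03, 3.98 and 5.05 CPM in Input siRNAG5. The silenced libraries lay above the controls, a log2 FC of 0.58 ± 0.18 (adjusted p = 0.010). Leaving out Input Ctrl 1 took the value to 0.49, inside the size limit, and without Ctrl 3 and Ctrl 4 the call was lost as well. In Polysome it was at 1.83, 2.54, 2.96 and 2.28 CPM in Ctrl and 4.92, 3.89, 4.45 and 4.47 CPM in siRNAG5, a log2 FC of 0.91 ± 0.20 (adjusted p = 0.022). PUS7 was at -0.36 in Input, within the size limit, and PUS3, a synthase of the anticodon stem, at -0.16 (adjusted p = 0.20).

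**Figure D2:**
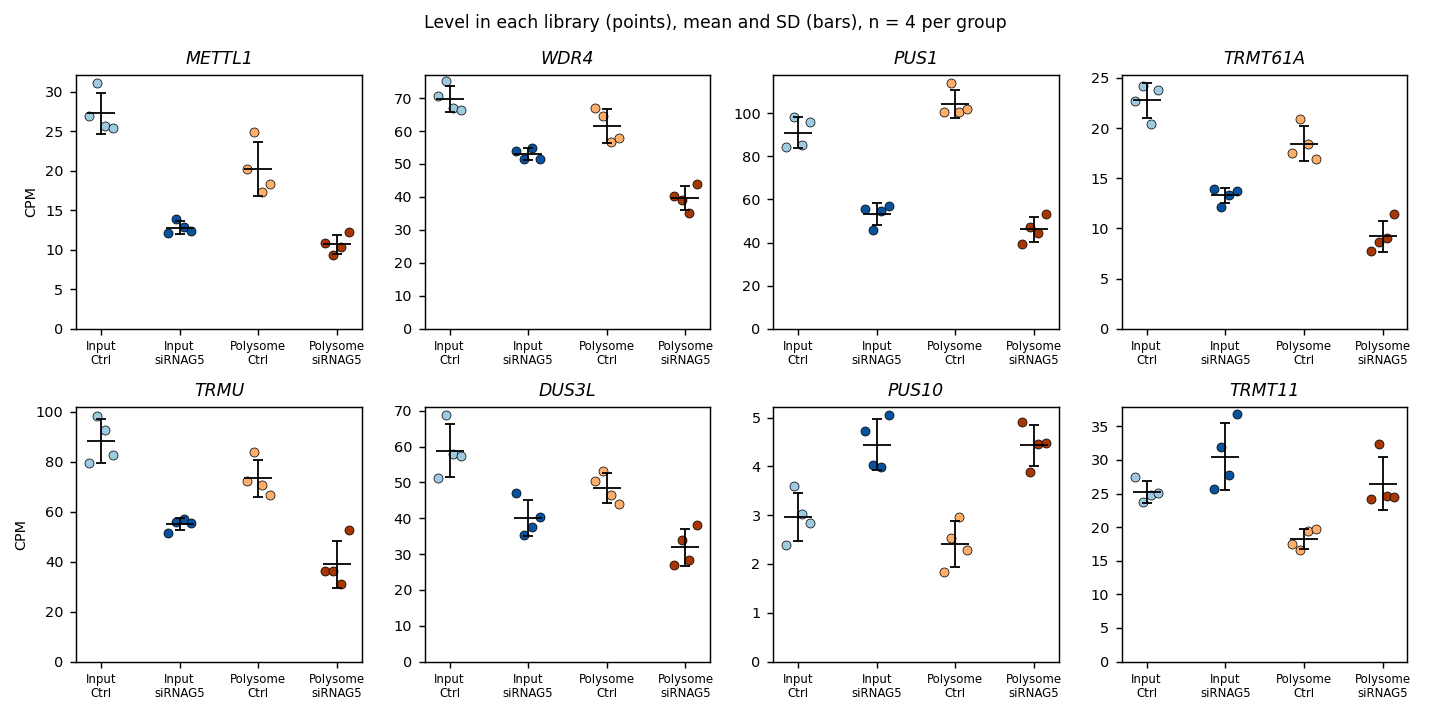
Level in CPM (y axis, from 0) of 8 tRNA modification mRNAs in each library of the 4 groups; points are libraries, bars the mean and SD of 4. METTL1, WDR4, PUS1, TRMT61A, TRMU and DUS3L were lower in every siRNAG5 library than in every Ctrl library of the same fraction, PUS10 was higher, and TRMT11 was higher without overlap in Polysome only.

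Of the 11 base methyltransferase genes, 3 fell in Input, and both subunits of the 1-methyladenosine enzyme of the T loop were among them. TRMT61A (chr14:103529196-103537073, plus strand), the catalytic subunit, was at 22.7, 24.2, 20.4 and 23.8 CPM in Input Ctrl and at 13.9, 12.1, 13.3 and 13.7 CPM in Input siRNAG5. With no overlap its log2 FC was -0.76 ± 0.10 (edgeR adjusted p = 4.4e-07). In Polysome it read 17.6, 20.9, 18.4 and 16.9 CPM in Ctrl and 7.74, 8.66, 9.03 and 11.4 CPM in siRNAG5 (log2 FC -0.96 ± 0.16, adjusted p = 0.0082). TRMT6, the subunit that helps bind the tRNA, was at 31.8, 33.3, 36.4 and 32.5 CPM in Input Ctrl and 18.2, 22.1, 24.8 and 22.6 CPM in Input siRNAG5, a log2 FC of -0.60 ± 0.09 (adjusted p = 1.0e-05). Its Polysome log2 FC was of like size, -0.56, but with an SE of 0.26 it was not called (adjusted p = 0.18). TRMT10C, a methyltransferase that is also a subunit of mitochondrial RNase P, fell by 0.53 in Input on the log2 scale (adjusted p = 1.3e-05), a call that was lost without Input Ctrl 3 (-0.50) or without Input siRNAG5 1 (-0.45).

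The remaining base methyltransferase genes stayed within the size limit in Input. TRMT1, which dimethylates a guanosine at the hinge of the tRNA, lay next to that limit, at 65.5, 73.0, 72.2 and 76.4 CPM in Input Ctrl and 52.9, 50.1, 52.2 and 46.7 CPM in Input siRNAG5, a log2 FC of -0.50 ± 0.07 (edgeR adjusted p = 3.9e-06). TRMT112 was also near it, at 693, 780, 747 and 687 CPM in Input Ctrl and 508, 513, 524 and 515 CPM in Input siRNAG5, a log2 FC of -0.48 ± 0.06 (adjusted p = 2.8e-07). Neither gene had overlapping groups in Input. TRMT11, the guanosine methyltransferase that TRMT112 activates, did not follow it: the Polysome libraries read 17.5, 16.6, 19.4 and 19.7 CPM in Ctrl and 24.2, 32.4, 24.7 and 24.5 CPM in siRNAG5, a log2 FC of 0.58 ± 0.14 (adjusted p = 0.036). In Input TRMT11 was at 0.29 ± 0.10 with overlapping groups. TRMT5, which methylates the guanosine following the anticodon, was at -0.31 in Input. The mitochondrial TRMT2B and TRMT61B were at 0.09 and -0.10, the cytosolic TRMT2A at -0.10 and TRMT10A at -0.14. A share of 25.8% of TRMT112 exon length and 22.8% of that of TRMT61B lies opposite exons of ESRRA and SPDYA, and the strand setting of the counting is not given in the sources used here.

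Ribose methylation genes were not called in either fraction (edgeR quasi-likelihood test). On the adjusted p alone 2 of 3 were lower in Input, as were 19.1% of all genes, and 0 in Polysome. Both were inside the size limit. The Input log2 FC was -0.42 ± 0.12 for TRMT13 of the acceptor stem (adjusted p = 0.0064) and -0.26 ± 0.07 for FTSJ1 of the anticodon loop (adjusted p = 0.0028). For TRMT44 it was -0.16 ± 0.15. Of the 5-methylcytosine enzymes, NSUN2, which places this mark on many cytosolic tRNAs, fell from 75.3, 86.4, 77.1 and 81.5 CPM in Input Ctrl to 46.1, 49.3, 61.5 and 58.6 CPM in Input siRNAG5. The groups did not overlap, and the log2 FC was -0.56 ± 0.08 (edgeR adjusted p = 4.6e-06), or -0.49 without Input siRNAG5 1. NSUN6 of the acceptor end and NSUN3 of the mitochondrial methionine tRNA both had an Input log2 FC between -0.06 and -0.05, within their standard errors of 0.13.

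The cytosolic wobble uridine pathway was mixed. Elongator starts this pathway by adding a carboxymethyl group, ALKBH8 completes it with a methyl group, and CTU1 with CTU2 exchanges an oxygen for sulfur. Of the 5 Elongator genes listed none was called in Input or Polysome, and their Input values had both signs: ELP2 was at 0.31 ± 0.07, ELP3 at 0.17 ± 0.10, ELP4 at 0.05 ± 0.09, ELP5 at -0.32 ± 0.06 and ELP6 at -0.24 ± 0.07. ELP2 was higher without overlap, at 73.7, 75.0, 75.3 and 80.2 CPM in Ctrl against 94.2, 97.6, 94.9 and 87.0 CPM in siRNAG5. ELP5 was lower without overlap, at 297, 344, 319 and 296 CPM against 245, 250, 253 and 247 CPM. In the complex ELP2 and ELP3 belong to the catalytic lobe, ELP3 being the enzyme, and ELP4, ELP5 and ELP6 form the accessory ring. Exons of ELP4 and ELP5 lie opposite other genes over 19.2% and 17% of their length.

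ALKBH8 was called lower in Input, but its libraries overlapped: Ctrl read 7.16, 5.61, 3.73 and 5.69 CPM and siRNAG5 read 2.93, 3.36, 3.83 and 3.58 CPM (log2 FC -0.67 ± 0.18, edgeR adjusted p = 0.0033). Ctrl 3 lay among the silenced libraries. CTU2 was at 95.5, 111, 96.5 and 102 CPM in Input Ctrl and 76.6, 70.3, 70.2 and 68.0 CPM in Input siRNAG5, a log2 FC of -0.49 ± 0.07 just inside the limit (adjusted p = 2.3e-06). CTU1, the catalytic partner, was at -0.28 ± 0.10 in Input and fell in Polysome, from 14.1, 17.8, 17.9 and 19.1 CPM to 8.51, 10.8, 8.91 and 11.4 CPM with no overlap (log2 FC -0.76 ± 0.15, adjusted p = 0.017).

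In mitochondria the same wobble base receives a taurine group from MTO1 with GTPBP3 and sulfur from TRMU. TRMU (chr22:46330875-46357340, plus strand) fell in both fractions. Its Input libraries read 79.3, 98.3, 92.6 and 82.5 CPM in Ctrl and 51.6, 56.0, 57.1 and 55.5 CPM in siRNAG5, all lower (log2 FC -0.67 ± 0.08, edgeR adjusted p = 6.0e-08). Its Polysome libraries read 72.0, 83.8, 70.7 and 66.8 CPM in Ctrl and 36.2, 36.0, 31.1 and 52.4 CPM in siRNAG5, a log2 FC of -0.88 ± 0.17 (adjusted p = 0.015). GTPBP3 was at -0.34 ± 0.08 in Input without overlap and within the size limit, and MTO1 at 0.00 ± 0.10.

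Deamination of adenosine to inosine at the wobble base, by ADAT2 with ADAT3, widens codon reading. ADAT3, the non-catalytic subunit, was at 8.26, 9.35, 8.45 and 10.99 CPM in Input Ctrl and 6.19, 5.64, 6.08 and 6.47 CPM in Input siRNAG5, a log2 FC of -0.59 ± 0.13 with no overlap (edgeR adjusted p = 0.00066). As 34.8% of its exon length is shared with SCAMP4 on the same strand, how reads were divided between both genes bears on this value. ADAT2, the catalytic subunit, was at 0.19 ± 0.11, and ADAT1, which deaminates the base following the anticodon of alanine tRNA, at -0.45 ± 0.20 (adjusted p = 0.076). Of the other genes for the base following the anticodon, OSGEP, the catalytic KEOPS subunit, was at -0.35 ± 0.07 in Input and fell in Polysome, from 121, 126, 99.1 and 111 CPM to 80.1, 71.1, 70.2 and 82.5 CPM (log2 FC -0.55 ± 0.14, adjusted p = 0.034). The isopentenyl transferase TRIT1 was higher without overlap in Input, at 0.27 ± 0.09, and TRMT12 of the wybutosine pathway was at -0.14 ± 0.11.

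DTWD1, which adds an aminocarboxypropyl group to uridine in the D arm, was at 22.1, 22.9, 20.01 and 21.0 CPM in Input Ctrl and 10.4, 16.3, 14.3 and 13.5 CPM in Input siRNAG5. The siRNAG5 libraries were all lower, with a log2 FC of -0.65 ± 0.11 (edgeR adjusted p = 3.6e-05), while its Polysome log2 FC was -0.22 ± 0.18. DTWD2, its paralog, was at -0.47 ± 0.25 in Input (adjusted p = 0.14) at levels of 1.07 to 2.62 CPM. DUS3L was the dihydrouridine synthase that fell: Input Ctrl read 51.1, 68.9, 58.0 and 57.4 CPM and Input siRNAG5 read 47.0, 35.4, 37.4 and 40.3 CPM (log2 FC -0.55 ± 0.09, adjusted p = 2.5e-05). The groups did not overlap, although Ctrl 1 and siRNAG5 1 came near each other, and without Ctrl 2 or without siRNAG5 2 the log2 FC was -0.46 or -0.49. DUS4L was higher without overlap at 0.35 ± 0.10, inside the limit, DUS1L was at -0.27 ± 0.07 and DUS2 at 0.13 ± 0.10. The queuosine transferase subunits QTRT1 and QTRT2 were at -0.16 ± 0.08 and -0.45 ± 0.14 and neither was called.

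In Polysome, 8 of the 48 mRNAs were called lower and 2 higher (16.7% and 4.17%), where 4.00% of the 14420 genes tested were called lower and 3.95% higher. On the adjusted p alone 9 were lower and 2 higher, beside 4.09% and 4.02% of all genes, and the addition was TRMT2A (-0.43 ± 0.12, edgeR adjusted p = 0.048). The 4 siRNAG5 libraries lay below the 4 Ctrl libraries for 14 members and above them for 3, where 10.0% and 8.29% of all genes did so. The median was -0.25, beside 0.03 over all genes tested. METTL1, PUS1, TRMT61A, TRMU and DUS3L were called lower in both fractions and PUS10 higher in both. DUS3L was at 50.4, 53.2, 46.4 and 43.9 CPM in Polysome Ctrl and 26.9, 34.0, 28.4 and 38.2 CPM in Polysome siRNAG5, a log2 FC of -0.57 ± 0.15 (adjusted p = 0.040). The members called lower in Input alone were TRMT6, TRMT10C, NSUN2, ALKBH8, ADAT3 and DTWD1, and the 3 called lower in Polysome alone were WDR4, CTU1 and OSGEP. That a gene passed in 1 fraction alone is not a difference between the fractions, which is tested below.

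These Polysome counts moved with single libraries. Without Polysome Ctrl 2, 2 members were called lower and 0 higher (edgeR quasi-likelihood test), and over all genes 113 and 76 (0.768% and 0.517%). Without siRNAG5 1, siRNAG5 2 or siRNAG5 3, 4, 5 and 4 members were called lower, beside 254, 245 and 245 of all genes (1.74%, 1.68% and 1.68%). PUS1 and TRMT61A kept their call whichever of the 8 libraries was left out, and METTL1 and TRMU lost it without Ctrl 2 alone (adjusted p = 0.052 and 0.066). WDR4 kept it in 4 of 8, CTU1 in 5, PUS10 in 4, OSGEP in 2, and TRMT11 and DUS3L in 1.

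The split among Polysome libraries was also seen in the members. With a term for the set of Ctrl 1, siRNAG5 1 and siRNAG5 4, a term chosen after seeing the data, 10 of the 48 were lower in that set and 1 higher, where 15.6% and 11.8% of all genes were. QTRT2 had the lowest value, -1.06 ± 0.17, followed by NSUN2 at -0.96 ± 0.11 and TRMT6 at -0.83 ± 0.12. NSUN2 read 50.0, 92.2, 103 and 92.4 CPM in Polysome Ctrl and 33.7, 65.2, 74.7 and 36.0 CPM in Polysome siRNAG5. Ctrl 1 thus lay among the silenced libraries, and siRNAG5 1 and siRNAG5 4 below the other silenced ones. ELP5 was higher in the set, by 0.56 ± 0.15, with 241, 256, 172 and 180 CPM in Ctrl and 183, 117, 122 and 220 CPM in siRNAG5. With the term in the fit 13 members were called lower for the treatment and 3 higher, those added being TRMT112, ELP5, ELP6, CTU2, ADAT3 and, on the higher side, ELP2. Over all genes tested, 12.0% were then called lower and 12.1% higher. The log2 ratio of mean CPM was negative both within the set and within the other 5 libraries for 29 of the 48, where the set holds 1 Ctrl library. The share of all genes that did so was not computed, so no conclusion is drawn from this count. The labels name no batch that matches the split.

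**Figure D3:**
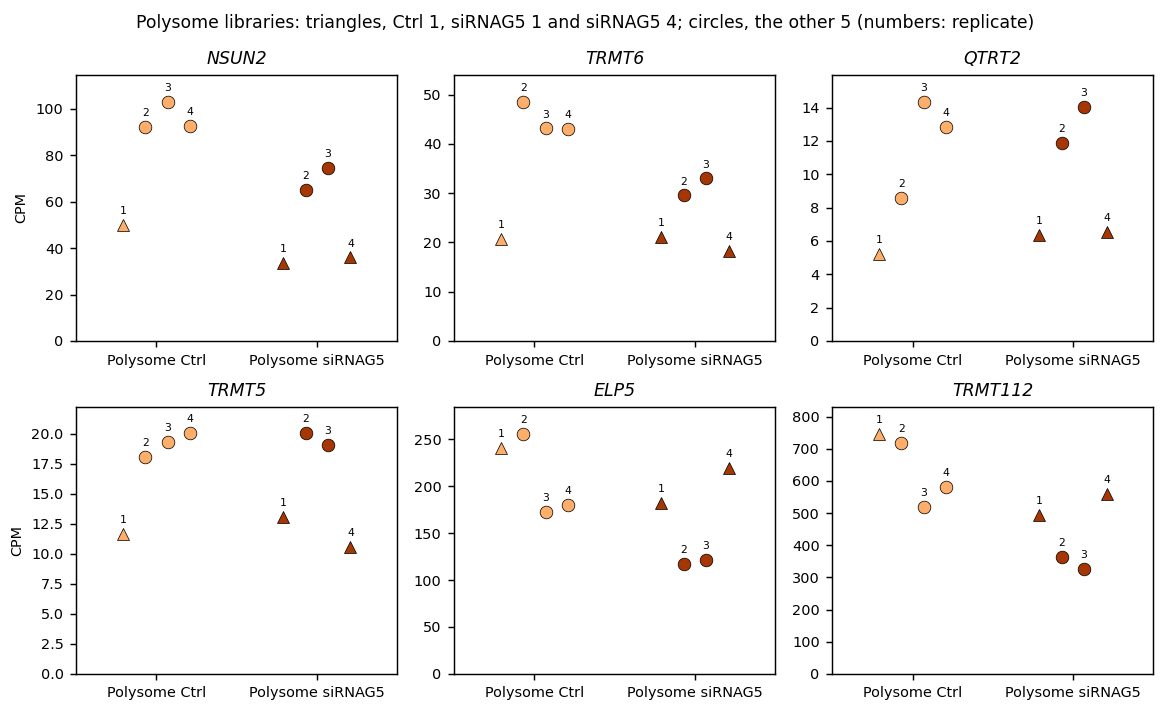
CPM (y axis, from 0) of 6 tRNA modification mRNAs in the 8 Polysome libraries; triangles are Ctrl 1, siRNAG5 1 and siRNAG5 4, circles the other 5, and numbers give the replicate. For NSUN2, TRMT6, QTRT2 and TRMT5 the triangles lay low in both treatments, whereas TRMT112 and ELP5 were lower in circles of siRNAG5 than in those of Ctrl.

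Whether silencing changed these mRNAs differently in polysomes than in Input was asked with the interaction of both factors. Of the 48, 0 were called, as was the case for 0% of the 14958 genes tested (edgeR quasi-likelihood test). At an unadjusted p under 0.05, 3 members were lower (6.25%), beside 701 of all genes (4.69%). On the higher side stood 1 member, beside 388 of the 14958 genes. DESeq2 also called 0 of the members and 12 lower and 18 higher of all genes. The all-gene count depended on how the split was handled: with the term for the set 297 genes were called lower and 95 higher, with 1 surrogate variable 278 and 74, and without Ctrl 1, siRNAG5 1 and siRNAG5 4 of Polysome, an alternative chosen after seeing the data, 659 and 106. Of the members 0 were called under each of these. In simulated counts the edgeR interaction test recovered 92 of 200 planted log2 differences of 1, so 0 calls do not show that no member differed. The smallest p among members was that of TRMT2A, with a Polysome change lower than its Input change by a log2 difference of -0.36 ± 0.13 (95% interval -0.62 to -0.10, adjusted p = 0.52). TRMT2A, the 5-methyluridine enzyme of the T loop, read 69.4, 70.8, 65.1 and 76.0 CPM in Polysome Ctrl and 47.9, 54.4, 49.4 and 51.3 CPM in Polysome siRNAG5, with overlapping Input groups of 62.3 to 70.0 and 58.4 to 68.4 CPM. CTU1 and PUS1 had differences of -0.51 ± 0.19 and -0.41 ± 0.15 and TRMT2B of 0.31 ± 0.14. The median difference was 0.01, beside -0.06 over all genes.

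Independently of silencing, the members differed in how well they were represented in polysomes. In Ctrl cells 13 of the 48 were lower in Polysome than in Input and 5 higher (27.1% and 10.4%), where 18.2% and 19.4% of all genes were. In siRNAG5 cells the counts were again 13 and 5, against 25.4% and 21.5%. These comparisons share no libraries but were fitted with a common spread. Without the 3 Polysome libraries of the set, 12 members were lower and 6 higher in Ctrl cells (19.1% and 21.3% of all genes), and 12 and 8 in siRNAG5 cells (29.4% and 24.7%). DUS2, which reduces uridine in the D loop, stood at 16.6, 18.6, 19.2 and 22.0 CPM in Input Ctrl and at 4.33, 8.10, 8.82 and 8.03 CPM in Polysome Ctrl, far apart, a log2 FC of -1.37 ± 0.18 (edgeR adjusted p = 7.3e-06) and of -1.51 ± 0.18 in siRNAG5 cells. DUS2 was also lower in the set of Ctrl 1, siRNAG5 1 and siRNAG5 4, by a log2 value of -0.64 ± 0.16, as was ELP3 at -0.65 ± 0.15. Without the set DUS2 kept both calls, at -1.18 and -1.26, whereas ELP3 lost its call in siRNAG5 cells (-0.26, adjusted p = 0.087), as did TRMT10C, TRMT44 and MTO1, and in Ctrl cells TRMT5 and CTU1 came inside the size limit. TRMT1 followed with 21.7, 37.4, 37.9 and 35.2 CPM in Polysome Ctrl (log2 FC -1.12 ± 0.15, adjusted p = 6.2e-06), and DUS1L with 95.0, 115, 108 and 93.1 CPM (log2 FC -0.94 ± 0.15, adjusted p = 4.9e-05). ELP2, ELP3, ELP4, ELP5 and CTU1 were also called lower, so that 5 of the 8 cytosolic wobble uridine genes were less represented in polysomes of Ctrl cells.

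At the other end stood ADAT1, with 2.49, 3.82, 3.65 and 3.79 CPM in Input Ctrl and 8.83, 7.14, 8.26 and 9.60 CPM in Polysome Ctrl, a log2 FC of 1.29 ± 0.18 (edgeR adjusted p = 1.4e-05). DTWD2 had 1.29, 2.62, 2.05 and 2.27 CPM in Input Ctrl and 5.41, 4.53, 4.41 and 4.01 CPM in Polysome Ctrl (log2 FC 1.14 ± 0.22, adjusted p = 0.00030). ALKBH8 had 9.24, 12.4, 13.9 and 11.9 CPM in Polysome Ctrl (log2 FC 1.10 ± 0.20, adjusted p = 0.00023), all above its Input values. TRMT2B and TRMT12 were the other members higher in polysomes of Ctrl cells, at 0.76 and 0.61. The genes above 1 were also among the scarcest in Input, though PUS10, at a mean of 2.96 CPM in Input Ctrl, had a value of -0.29. Over the 48 members, which share libraries and depth, Spearman's rho of this log2 FC with Input Ctrl CPM was -0.38 (Pearson's r -0.17). As Input Ctrl is also the denominator of this log2 FC, noise in Input alone pushes that rho below 0. With transcript length rho was 0.26 (Pearson's r 0.11). In siRNAG5 cells the split of calls depended on the scaling: with relative log expression factors, as with DESeq2, it was 10 lower and 7 higher. Of all genes, 22.6% were lower and 23.3% higher with these factors, and 17.9% and 17.9% with DESeq2.

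**Figure D4:**
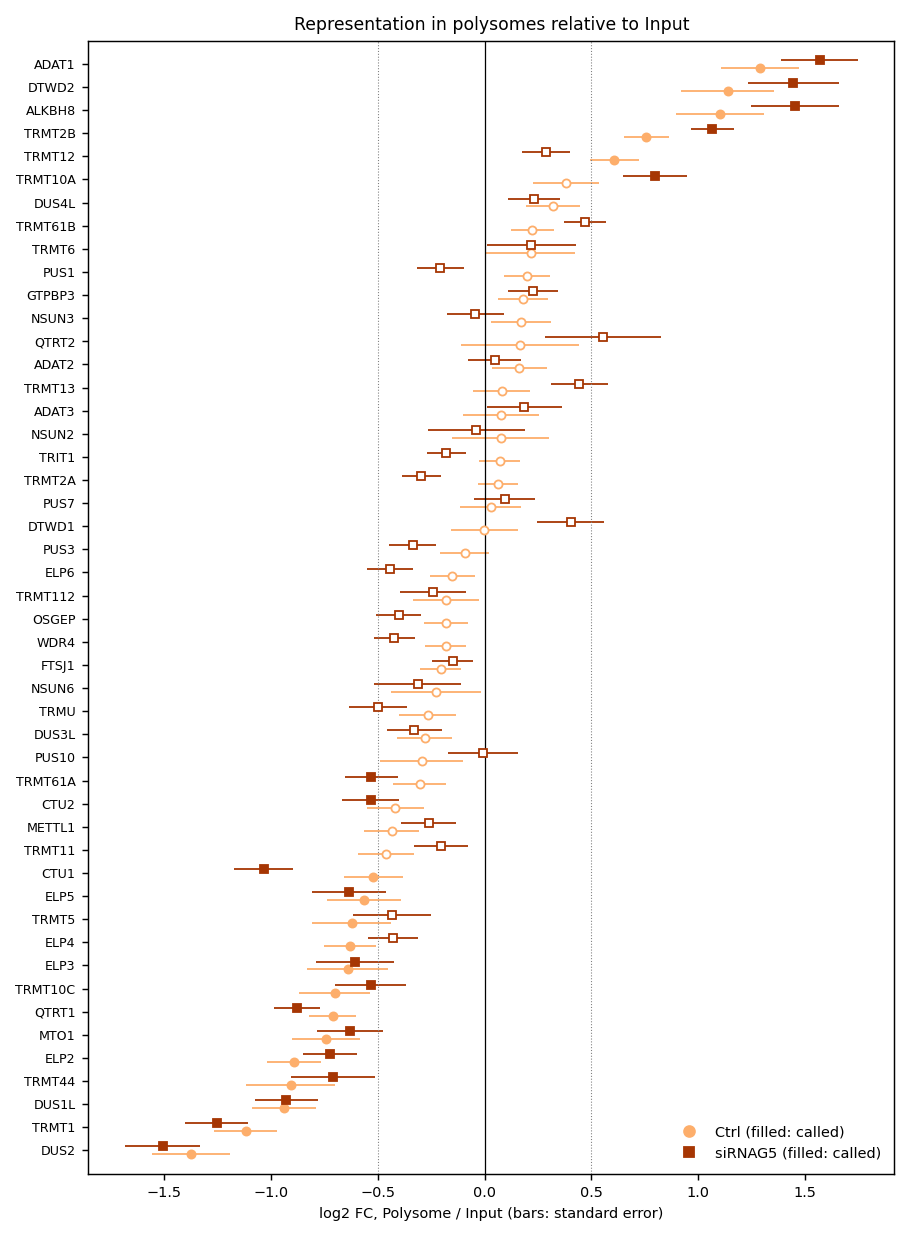
Log2 FC of Polysome over Input (x axis) for the 48 tRNA modification genes in Ctrl (circles) and siRNAG5 cells (squares), ordered by the Ctrl value; bars are standard errors, filled symbols passed the call, and dotted lines mark the limit of 0.5. Values ran from -1.37 for DUS2 to 1.29 for ADAT1 in Ctrl cells, with both ends at the same genes after silencing.

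The mRNAs of enzyme partners did not keep their ratio in every pair, shown here as ratios of CPM per kb with no test. METTL1 over WDR4 was 0.582, 0.632, 0.584 and 0.584 in Input Ctrl and 0.341, 0.411, 0.359 and 0.365 in Input siRNAG5, so that all silenced libraries had less METTL1 per WDR4. In Polysome the ratio was 0.459 to 0.589 and 0.364 to 0.453, again without overlap. ADAT3 over ADAT2 was 2.98 ± 0.37 (SD, n = 4) in Input Ctrl and 1.74 ± 0.23 in Input siRNAG5 without overlap, and the Polysome libraries overlapped. TRMT112 over TRMT11 was 57.3 to 74.6 and 31.8 to 45.0 in Input, and 61.0 to 98.1 and 25.5 to 51.8 in Polysome, with no overlap in either. TRMT61A over TRMT6 kept to 0.510 to 0.666 and 0.490 to 0.697 in Input, where the groups overlapped. The ratios for CTU1 with CTU2, QTRT2 with QTRT1 and GTPBP3 with MTO1 overlapped in both fractions. How often ratios of other gene pairs do not overlap was not computed, so no conclusion is drawn from these counts. The exon overlaps of ADAT3 with SCAMP4 and of TRMT112 with ESRRA may bear on the ratios of these genes.

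**Figure D5:**
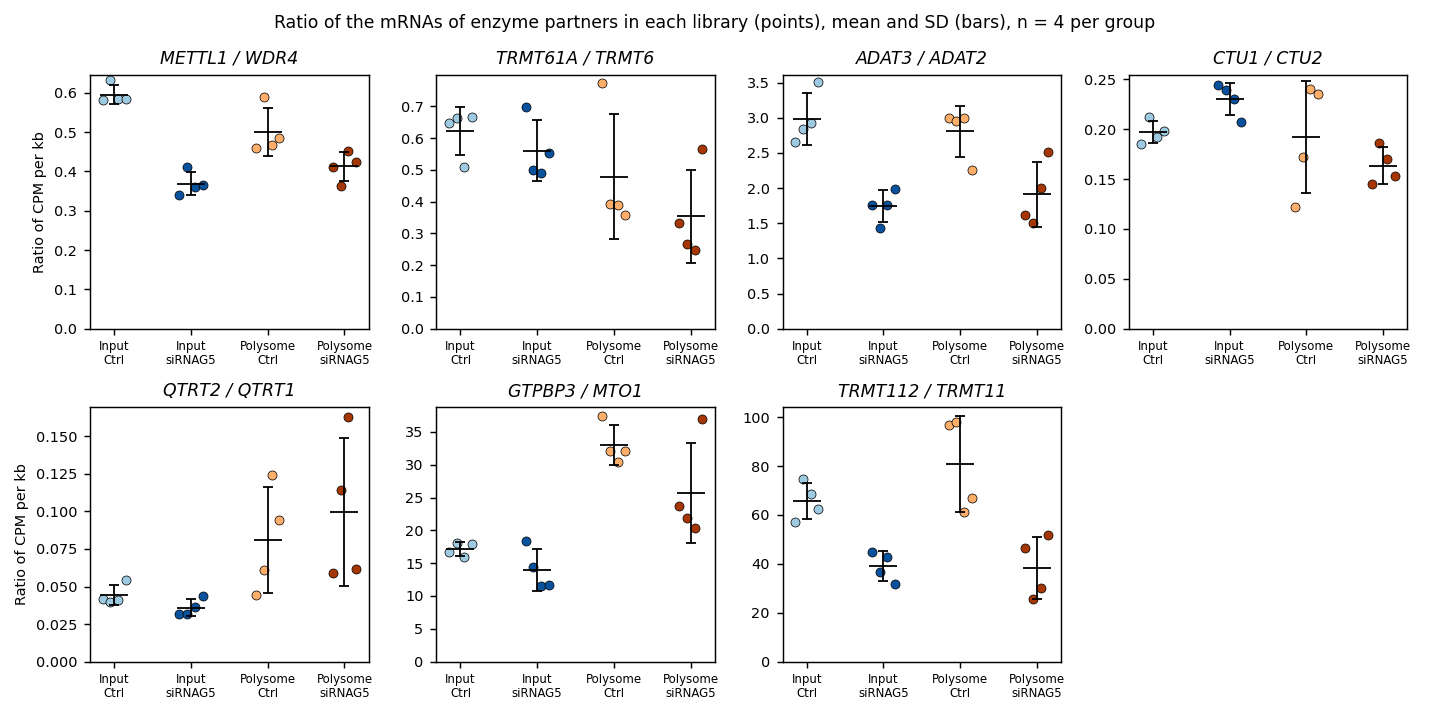
Ratio of the CPM per kb of 2 partner mRNAs (y axis, from 0) in each library of the 4 groups for 7 enzyme pairs; points are libraries, bars the mean and SD of 4. METTL1 over WDR4 and TRMT112 over TRMT11 were lower in every siRNAG5 library than in every Ctrl library of the same fraction, and ADAT3 over ADAT2 was so in Input.

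Beyond the list, 40 of 41 other tRNA modification genes were tested in Input, where 4 were called lower (10%, beside 6.02% of all genes), the median log2 FC was -0.29 and the highest 0.37. In Polysome 6 were called lower (14.6%, beside 4.00%), with a median of -0.20 and a highest value of 0.48. Those called lower in Input were TRMO, YRDC, METTL8 and TRUB2, at -0.81 ± 0.12, -0.77 ± 0.07, -0.81 ± 0.11 and -0.59 ± 0.07, and all of them were also called lower in Polysome. YRDC makes the threonylcarbamoyl donor for OSGEP. Of 29 tRNA processing genes, 27 were tested in Input and 5 were called lower (18.5%), namely the RNase P subunit genes POP4, POP7, RPP38 and RPP40 and the kinase gene CLP1. Their median was -0.32 and the highest value 0.16. In Polysome 5 of 28 were called lower (17.9%), with a median of -0.22.

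The promoters of members were read for 2 motifs tied to growth-regulated genes, in RefSeq windows of 250 bases before to 50 bases from the start (GRCh38.p14), which were at hand for 40 of the 48. CACGTG, a palindrome known as the E-box core bound by MYC with MAX, stood in 4 of the 40 (10%), beside 8.77% of the genes with such a window. These 4 are printed to show where the motif, in capitals, lies. In TRMT6 and TRMT61A, partners called lower in Input, it begins at base 5 and base 33 counted from the start, in PUS7 at base 29, and in QTRT1 45 bases before it.

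TRMT61A, chr14:103529218-103529243, plus strand: gtcgcggaggCACGTGtggagccccg

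TRMT6, chr20:5950514-5950539, minus strand: cggcgtgcaaCACGTGggggcggtgc

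PUS7, chr7:105522228-105522253, minus strand: cgctgcgccgCACGTGtgcgagcccg

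QTRT1, chr19:10701384-10701409, plus strand: atcgcgtggtCACGTGacagcggcca

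The other motif was the start that marks terminal oligopyrimidine (TOP) mRNAs, such as those of ribosomal proteins, taken as C followed by 4 pyrimidines at the annotated start. It stood in 1 of the 40 (2.5%), PUS3, beside 5.14% of genes, and in 0 of the 8 members called lower in Input that had a window. The 3 of these with the lowest log2 FC are printed from 80 bases before the start, with the first 5 transcribed bases in capitals. The absence of a first C followed by 4 pyrimidines can thus be read off. In ALKBH8 a run of pyrimidines does follow, but after a leading A and G. A match or its absence describes these letters at 1 annotated start each and says nothing of a factor.

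TRMT61A, chr14:103529116-103529215, plus strand: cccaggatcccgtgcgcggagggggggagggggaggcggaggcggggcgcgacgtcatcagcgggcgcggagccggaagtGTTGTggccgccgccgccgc

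TRMU, chr22:46335634-46335733, plus strand: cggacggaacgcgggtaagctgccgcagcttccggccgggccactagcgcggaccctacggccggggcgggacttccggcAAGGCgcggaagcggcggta

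ALKBH8, chr11:107565716-107565815, minus strand: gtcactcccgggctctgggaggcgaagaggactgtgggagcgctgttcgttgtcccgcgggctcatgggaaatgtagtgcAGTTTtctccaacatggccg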

How the data were processed

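Processed files of 16 libraries were used. The authors aligned the reads of a stranded mRNA kit to GRCh38 with STAR (version 2.5.3a) and deposited whole-number counts per gene, made with QoRTs according to the methods. Rows that name no gene were left out of totals and tests, where ambiguous reads made 4.14 to 7.41% and reads on no feature 0.667 to 1.33% of a library. The strand setting of the counting is not given in the sources used here. Library totals set the precision, and their range opens the report.

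Counts were tested with edgeR (version 4.0.16) across all genes, with filterByExpr, TMM scaling and the quasi-likelihood test, and p-values were adjusted by Benjamini-Hochberg over all genes tested. All 48 members passed the filter in every fit. Input and Polysome were fitted alone, and the interaction and the comparison of Polysome with Input came from all 16 libraries. SE is the log2 FC divided by the square root of F. CPM per kb used the canonical transcript of a GENCODE annotation of GRCh38, a later release than the authors' Ensembl one. Alternatives used DESeq2 (version 1.42.0), sva (version 3.50.0), other scalings and filters, a replicate block and each library left out. The fits were tested on simulated counts in which 200 genes were changed by 1 on the log2 scale. They recovered 174 in Input, 135 in Polysome, 92 for the interaction and 147 for Polysome against Input in Ctrl cells. False calls were 2, 1, 6 and 9. No replicate pair agreed within sampling noise, so each was counted as a sample of its own.

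The named genes were those with the largest changes called in each comparison, members of enzyme complexes, the smallest p of the interaction and both ends of the comparison of Polysome with Input. TRMT10C, TRMT2B and others outside that rule were named after their values were seen. Members and lists were chosen with earlier results of these data known.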

Additional observations from a re-analysis of the deposited data

Results flagged for a closer look

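Of the levels of 34 named genes in the 4 groups, 136 groups in all, 6 held a library far from the other 3 by Dixon's ratio, and chance alone flags about 1 in 20 such groups. In Polysome Ctrl, PUS1 was at 114 CPM in Ctrl 2 with the others at 101 to 102 CPM, and TRMT1 at 21.7 CPM in Ctrl 1 with the others at 35.2 to 37.9 CPM. In Polysome siRNAG5, TRMT11 was at 32.4 CPM in siRNAG5 2 with the others at 24.2 to 24.7 CPM, and QTRT1 at 28.5 CPM in siRNAG5 3 with the others at 34.4 to 35.5 CPM. In Input, DTWD2 was at 1.07 CPM in siRNAG5 1 with the others at 1.59 to 1.63 CPM, and ADAT1 at 2.49 CPM in Ctrl 1 with the others at 3.65 to 3.82 CPM. The PUS1 call did not rest on Ctrl 2, since it was kept without that library, whereas the TRMT11 call in Polysome was lost without siRNAG5 2 (edgeR log2 FC 0.48, adjusted p = 0.097).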

How the results depend on the processing

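No member called in the main fit of a comparison changed sign in that comparison under any alternative run that tested it. Members not called there were not checked for a change of sign. On the adjusted p alone, 26 members were lower and 5 higher in Input, beside 19.1% and 17.9% of all genes. For Polysome against Input in siRNAG5 cells 22 were lower and 9 higher, beside 31.1% and 25.0%. With no filter on low counts the last comparison gave 8 higher, beside 12.3% of all genes. It also gave 8 without Polysome Ctrl 1, siRNAG5 1 and siRNAG5 4, chosen after seeing the data, beside 24.7%. Leaving out both Input Ctrl libraries with liver gene reads, chosen after seeing the data, left 0 called higher in Input, beside 9.97% of all genes. With all 16 libraries in one fit 14 members were lower in Polysome and 1520 of all genes (10.2%). With the library set as a term, also chosen after seeing the data, these were 13 and 1734 (12.0%). Leaving out each library in turn gave 0 to 1 called higher in Input, and 2 to 10 lower and 0 to 3 higher in Polysome. The shares over all genes were then 8.30 to 10.8% higher in Input, and 0.768 to 5.72% lower and 0.517 to 4.70% higher in Polysome. Over all genes, Polysome calls were 577 lower and 569 higher with edgeR, and 1200 and 771 with DESeq2. Same-numbered libraries did not deviate together throughout (correlations of -0.04 to 0.07 in Input, -0.61 to 0.55 in Polysome and, between Input and Polysome of 1 treatment, -0.09 to 0.22 in Ctrl and -0.23 to 0.23 in siRNAG5). Between the fractions, Input Ctrl 2, Ctrl 4, siRNAG5 1 and siRNAG5 2 correlated most with the Polysome library of their own number, and the others did not. These correlations cannot settle whether the numbers are pairs, and the main fits did not pair them. The methods draw both RNAs from individual lysates, but the labels tie no number to a lysate. With the replicate block, Polysome calls were 7 lower and 1 higher (3.87% and 3.08% of all genes). Input calls were 11 and 1 (5.99% and 10.4% of all genes), and the interaction called 0. A block for each treatment and number, chosen after seeing the data, also gave 0 for the interaction. For Polysome against Input it gave 13 and 5 in Ctrl cells (18.9% and 18.9% of all genes) and 14 and 5 in siRNAG5 cells (26.3% and 21.2%). The spread between Polysome libraries, a biological coefficient of variation of 0.216 beside 0.0806 in Input, limits what Polysome tests can show, and cultures read once per fraction give no measure of technical error.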
